A study of Mus musculus with 55 samples.

Results

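The genes described here are the semaphorins and their plexin receptors, the ephrins and their Eph receptors, and the Slits and their Robo receptors, measured by RNA sequencing in cell populations sorted from mouse liver. They were taken by family name, with no threshold on their values: 58 of the 24478 gene symbols in the table, namely 20 semaphorins, 9 plexins, 8 ephrins, 14 Eph receptors, 3 Slits and 4 Robos. Every value below is a transcript level in FPKM, which scales sequenced fragments by the length of the transcript and the size of the library, so levels of genes are compared per length. For 22 of the genes the table has several rows, and the level given is that of 1 row, which held 15.1% to 76.3% of the gene's summed FPKM, so the order of levels between genes holds only for the rows used.

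The 55 libraries came from C57B/L6 mice, 27 of them of normal liver and 28 taken after partial hepatectomy (PH), the surgical removal of part of the organ, after which the remnant regrows. The labels name no transgene or deletion and give neither age nor time after surgery. There were 10 populations. Clonal biliary epithelial cells (cBEC) had 4 normal and 2 PH libraries, of which PH replicate 1 carries the treatment tag normal and was kept as titled. Biliary epithelial cells (BEC) had 4 and 2, cells of non progenitor ducts (NPD) 2 and 2, and hepatocytes (HC) 4 and 4. Endothelial cells (EC) had 2 and 3, liver sinusoidal endothelial cells (LSEC) 3 and 5, and Kupffer cells (KC), the resident macrophages, 2 and 3. Hepatic stellate cells (HSC), the vitamin A-storing pericytes of the sinusoid, had 2 and 3, Thy1 cells 2 and 2, and blood cells 2 and 2. Nothing states that replicates were separate animals, so the p-values measure only the spread between these samples.

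These families were first known from the steering of growing axons and also act on blood vessels, epithelia and immune cells. Class 3 semaphorins are secreted and bind neuropilins, which signal through plexins, whereas most other semaphorins are membrane proteins that bind plexins directly. Ephrins are cell-bound ligands, so they and Eph receptors signal between touching cells and in both directions. Slits are secreted and signal through Robo receptors, and Robo4 is known from endothelium.

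The sorts were checked against lists of 6 markers. In normal NPD the mesothelial list summed to 5930 to 6374 FPKM against 2584 to 3795 FPKM for the duct list, and in normal Thy1 cells mesothelial markers summed to 1866 to 3007 FPKM against 1103 to 1174 FPKM for the fibroblast list. In normal EC the sinusoidal list reached 2672 to 5811 FPKM and the general endothelial list 2493 to 2944 FPKM. Normal KC libraries carried 3240 to 4470 FPKM of sinusoidal endothelial markers, and normal blood 705 to 804 FPKM. In bulk RNA, fewer cells of a type and less RNA per cell cannot be told apart. Many transcripts with a high level in hepatocytes are listed at 0 in libraries of other sorts, and 7 guidance genes averaged at least 10 FPKM in normal hepatocytes. Of the 47 libraries of other sorts, Sema4g was listed at 0 in 15, Plxnb1 in 5, Efna1 in 3, Epha1 and Sema4a in 2 each, and Epha2 and Plxnb2 in 0.

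Of the 58 genes, 52 reached a group mean of at least 1 FPKM somewhere and 16 reached 100 FPKM. The 6 that stayed under 1 FPKM in every group mean were Epha5, Epha6, Epha8, Epha10, Robo3 and Sema5b. In normal liver, genes were called enriched in a population when they exceeded the mean of the other 9 by at least 1 on the log2 scale with a limma adjusted p under 0.05. This held for at least 1 population for 50 of the 52 tested genes, against 69.3% of all genes tested. Thy1 cells had 26 enriched guidance genes (13.5% of all genes were enriched there), NPD 18 (12.8%) and EC 17 (8.27%). LSEC had 15 (8.86%), HSC 15 (9.01%), cBEC 16 (17.3%) and BEC 16 (16.2%). The fewest were found in KC with 8 (11.5%), HC with 5 (10.8%) and blood with 3 (24.6%). The same genes recur in these counts: 17 were enriched in both NPD and Thy1, 15 in both cBEC and BEC and 14 in both EC and LSEC. HSC and Thy1 shared 6, as did KC and LSEC. The shares of all genes were not counted, so these overlaps cannot be called large or small for guidance genes. The population with the highest mean was the same in normal and PH liver for 34 of the 48 genes that passed 1 FPKM in both.

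**Figure D1:**
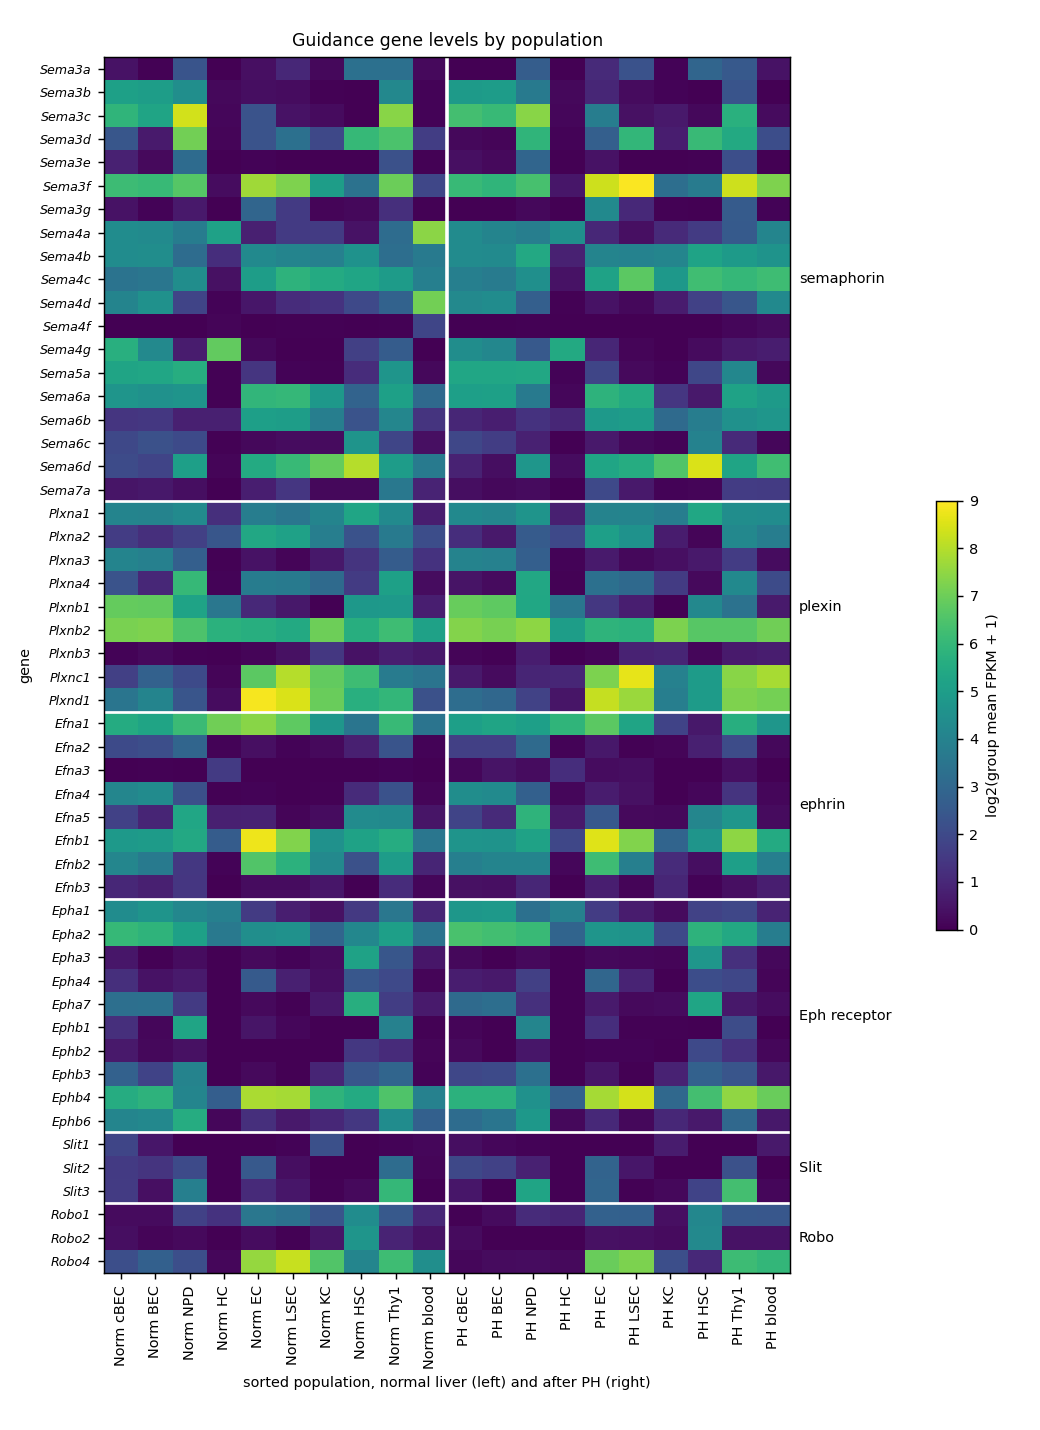
Color shows log2(group mean FPKM + 1) of the 52 guidance genes that reached a group mean of 1 FPKM (rows, grouped by family) in the 20 groups (columns, normal liver on the left and PH on the right). Bright cells for Sema3f, Plxnd1, Efnb1, Ephb4 and Robo4 lie in the EC and LSEC columns, those for Sema3c in NPD and Thy1, and that for Sema6d in HSC.

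Among secreted semaphorins, Sema3c, a neuropilin ligand known from heart outflow development, was highest in normal NPD, at 344 and 319 FPKM, followed by Thy1 cells at 194 and 138 FPKM. Sema3d followed the same order, with 114 and 156 FPKM in NPD and 129.6 and 41.4 FPKM in Thy1, and these values overlapped. Stellate cells held a further 61.4 and 66.6 FPKM of Sema3d. Sema3f, a ligand of neuropilin-2 that restrains vessel growth, was instead endothelial, at 200.5 and 214 FPKM in EC and 177, 116 and 169 FPKM in LSEC. Both NPD and Thy1 also carried the mesothelial markers named above, and the part of those cells in the Sema3c and Sema3d levels was not tested.

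The membrane semaphorins divided the remaining sorts. Sema6d, a plexin-A1 ligand, was highest in normal stellate cells, at 288 and 225 FPKM, above both KC libraries (138 and 93.3 FPKM). Sema4a and Sema4d, both known from lymphocytes and other immune cells, were highest in the normal blood sort. Sema4a was 162 and 181 FPKM there and Sema4d 139 and 128 FPKM, while no other normal population exceeded a mean of 34.4 FPKM for Sema4a or 22.5 FPKM for Sema4d. Sema4g was highest in normal hepatocytes, at 75.1, 157, 139.6 and 78.5 FPKM, and was listed at 0 in 15 of the 47 libraries of other sorts.

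Receptors were also split between sorts. Plxnd1, the endothelial receptor of Sema3e, was the highest plexin, at 445 and 484 FPKM in normal EC with 451, 299 and 326 FPKM in LSEC, so the 2 endothelial sorts overlapped. Plxnc1, the receptor of Sema7a, was highest in normal LSEC at 241, 332 and 186 FPKM. Plxnb2, a receptor of class 4 semaphorins, was broad, from a mean of 34.4 FPKM in normal blood to 154 FPKM in normal BEC. Ephb4, the receptor of ephrin-B2 known from veins, stood at 231 and 228 FPKM in normal EC and 228, 211 and 228 FPKM in LSEC. Epha7 and Robo2, receptors of A-type ephrins and of Slits, were highest in stellate cells. Epha7 measured 55.8 and 42.2 FPKM there, and the next population, BEC, averaged 9.02 FPKM. Robo2 measured 22.5 and 27.4 FPKM in stellate cells and averaged under 1 FPKM in every other normal sort. Robo1, another Slit receptor, was highest in stellate cells too, at 18.8 and 20.9 FPKM, and Robo4 in LSEC, at 329, 297 and 285 FPKM.

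Ephrins and Slits had different main sources. Efnb1, a ligand of EphB receptors, was highest in normal EC (405 and 465 FPKM), above LSEC at 195, 54.6 and 219 FPKM. Efna1, the ligand of EphA2, was 172 and 167 FPKM in EC and 147, 138, 105 and 133 FPKM in hepatocytes. The lowest EC library thus lay above the highest hepatocyte library in the values as listed. The FPKM of all rows summed to 692890 and 657270 in these EC libraries and to 960918 to 1203197 in the hepatocyte libraries. The order of these sorts for Efna1 was not corrected for that difference. Slit3 was 56.4 and 68.1 FPKM in normal Thy1 and 12.3 and 15.5 FPKM in NPD, and the highest of the other normal libraries, cBEC replicate 1, had 5.40 FPKM. Slit2 and Slit1 were low, with the highest group means at 8.14 FPKM (normal Thy1) and 3.54 FPKM (normal KC).

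Neighboring sorts of normal liver differed in these genes. The duct sorts cBEC and NPD differed in 22 of 44 tested genes (29.7% of all genes tested), 10 higher in cBEC (18.5% of all genes) and 12 higher in NPD (11.2%). The median log2 difference was -0.20 over these genes and 0.25 over all genes. Sema4g was 66.8, 34.4, 45.4 and 51.9 FPKM in cBEC and 0 and 1.21 FPKM in NPD (log2 difference 5.05 ± 0.37, SE; limma adjusted p = 0.000111). Efnb2 was the next largest of those higher in cBEC, at 35.8, 11.2, 8.89 and 10.6 FPKM against 2.22 and 1.30 FPKM (log2 difference 2.47 ± 0.53, SE; limma adjusted p = 0.0111). In the opposite direction, Sema3d was 10.1, 1.30, 3.33 and 2.55 FPKM in cBEC and 114 and 156 FPKM in NPD (log2 difference -4.92 ± 0.59, SE; limma adjusted p = 0.00144). Ephb1, an EphB receptor, was 1.93, 0.414, 1.11 and 1.78 FPKM in cBEC against 30.9 and 43.6 FPKM in NPD (log2 difference -4.09 ± 0.37, SE; limma adjusted p = 0.000237). For each of these 4 genes the libraries of the 2 sorts did not overlap, which held for 50.6% of all genes. Mesothelial markers were also higher in NPD (5930 to 6374 FPKM, against 146 to 502 FPKM in cBEC), and their part was not tested. Sema4g, as given above, is high in hepatocytes and was listed at 0 in 15 of the 47 libraries of other sorts. Hepatocyte markers summed to 0 FPKM in normal NPD and to 0 to 858 FPKM in normal cBEC. The part of such 0 values and of hepatocyte RNA in the Sema4g difference was not tested. Without either NPD library 15 of the 22 calls were kept, among them Sema4g, Sema3d and Ephb1 but not Efnb2.

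Stellate and Thy1 cells of normal liver differed in 15 of 46 tested genes (9.55% of all genes tested), 5 higher in stellate cells (2.4% of all genes) and 10 higher in Thy1 cells (7.15%). The median log2 difference was -1.08 over these genes and -0.37 over all genes. With quantile normalization the split was 7 against 5. The 5 higher in stellate cells were Epha7, Robo2, Sema6d, Sema6c and Epha3, of which the last 2 are named because the list is short. Epha7 was 55.8 and 42.2 FPKM against 0.730 and 3.45 FPKM (log2 difference 4.16 ± 0.56, SE; limma adjusted p = 0.0218), and Robo2 22.5 and 27.4 FPKM against 0.537 and 1.15 FPKM (3.83 ± 0.44, SE; adjusted p = 0.0150). The 2 largest differences toward Thy1 cells were those of the ligands Sema3c and Slit3. Sema3c was 0 and 0.0390 FPKM in stellate cells and 194 and 138 FPKM in Thy1 cells (log2 difference -7.34 ± 0.36, SE; limma adjusted p = 0.00295). Slit3 was 0.231 and 0.0915 FPKM against 56.4 and 68.1 FPKM (log2 difference -5.76 ± 0.39, SE; limma adjusted p = 0.00526). Sema3c and Slit3 were under 1 FPKM in both stellate libraries and were tested only because Thy1 cells passed 1 FPKM, which fixed their direction. The receptors Ephb1 and Plxna4 were also higher in Thy1 cells. Markers of other cells differed between these sorts: in Thy1 and stellate libraries, mesothelial markers summed to 1866 to 3007 and 0.864 to 3.54 FPKM, duct markers to 865 to 5104 and 0.292 to 31.5 FPKM, and general endothelial markers to 799 to 874 and 53.8 to 218 FPKM. Their part was not tested. The calls of these genes, like those of all other genes, were lost without Thy1 replicate 1 or replicate 2, which left 1 library in that arm.

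Between normal EC and LSEC, 0 of 28 tested genes passed with limma (0.00843% of all genes were called). At an unadjusted limma p under 0.05 there were 7 of the 28, against 9.24% of all genes. Slit2 had the smallest p of them, at 3.85 and 5.58 FPKM in EC and 0.374, 0 and 0.402 FPKM in LSEC, with an adjusted p of 0.178. Efnb1 and Plxnc1 leaned in opposite directions, with means of 435 against 156 FPKM and 105 against 253 FPKM, and adjusted p of 0.500 and 0.276 in limma. The sinusoidal markers of the EC sort given above stand beside this comparison.

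After PH, sinusoidal endothelial cells had more of several secreted semaphorins and less of the ephrins Efna1 and Efnb2. In LSEC 8 of 22 tested genes changed (8.46% of all genes tested), 5 higher (4.15% of all genes) and 3 lower (4.31%), and with quantile normalization 4 and 4. Sema3d rose from 8.86, 4.78 and 13.1 FPKM to 59.7, 37.8, 63.7, 67.5 and 78.2 FPKM (log2 change 2.71 ± 0.30, SE; limma adjusted p = 0.00166). Sema3f rose from 177, 116 and 169 FPKM to 506, 521, 432, 482 and 510.0 FPKM (log2 change 1.68 ± 0.18, SE; limma adjusted p = 0.00143). Each PH library lay above each normal library for both genes (groups did not overlap for 18.8% of all genes), and the PH level of Sema3f was the highest group mean among the rows used for the 58 genes, 490.3 ± 35.5 FPKM (SD, n = 5). Sema3a, the prototype neuropilin-1 ligand, rose at a low level, from 0.644, 0.281 and 2.03 FPKM to 3.20, 5.47, 2.52, 4.32 and 3.76 FPKM (log2 change 1.36 ± 0.32, SE; limma adjusted p = 0.0285). Sema4c, a plexin-B2 ligand, rose from 49.8, 71.9 and 46.0 FPKM to 115, 128, 111, 106 and 71.7 FPKM (0.91 ± 0.22, SE; adjusted p = 0.0312), with 1 PH library under the highest normal library.

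Receptors and ephrins of LSEC moved as follows. Ephb4 rose from 228, 211 and 228 FPKM to 309.8, 298, 325, 379.6 and 399 FPKM (log2 change 0.61 ± 0.16, SE; limma adjusted p = 0.0457). Its ligand Efnb2, known from arterial endothelium, fell from 78.0, 26.8 and 58.4 FPKM to 9.69, 25.6, 18.7, 5.26 and 9.07 FPKM (log2 change -1.98 ± 0.49, SE; limma adjusted p = 0.0404). The receptor and its ligand thus went in opposite directions in the same sort, and the lowest normal library of Efnb2 was just above the highest PH library. Efna1 fell from 124, 90.7 and 109 FPKM to 27.4, 54.1, 38.2, 28.7 and 37.3 FPKM (log2 change -1.54 ± 0.22, SE; limma adjusted p = 0.00459). Robo4, which stabilizes vessels, fell from 329, 297 and 285 FPKM to 128, 167, 172, 120.5 and 158 FPKM (log2 change -1.03 ± 0.17, SE; limma adjusted p = 0.00825). Of the co-receptors, Nrp1 fell (1 of 5 tested; mean 424 to 212 FPKM, log2 change -1.01, limma adjusted p = 0.0406), and Nrp2 averaged 129 and 109 FPKM. Sinusoidal markers summed to 4972 to 9690 FPKM in normal LSEC and 1527 to 5584 FPKM after PH, and fibroblast markers to 10.9 to 199 and 163 to 598 FPKM; their part in these changes was not tested. Sema3d, Sema3f and Efna1 stayed past the threshold without any 1 of the 8 libraries, whereas Robo4 was lost without normal replicate 1 (adjusted p = 0.0516). Of the 8 calls, 3 were kept without that library and 4 without PH replicate 1 or 4.

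**Figure D2:**
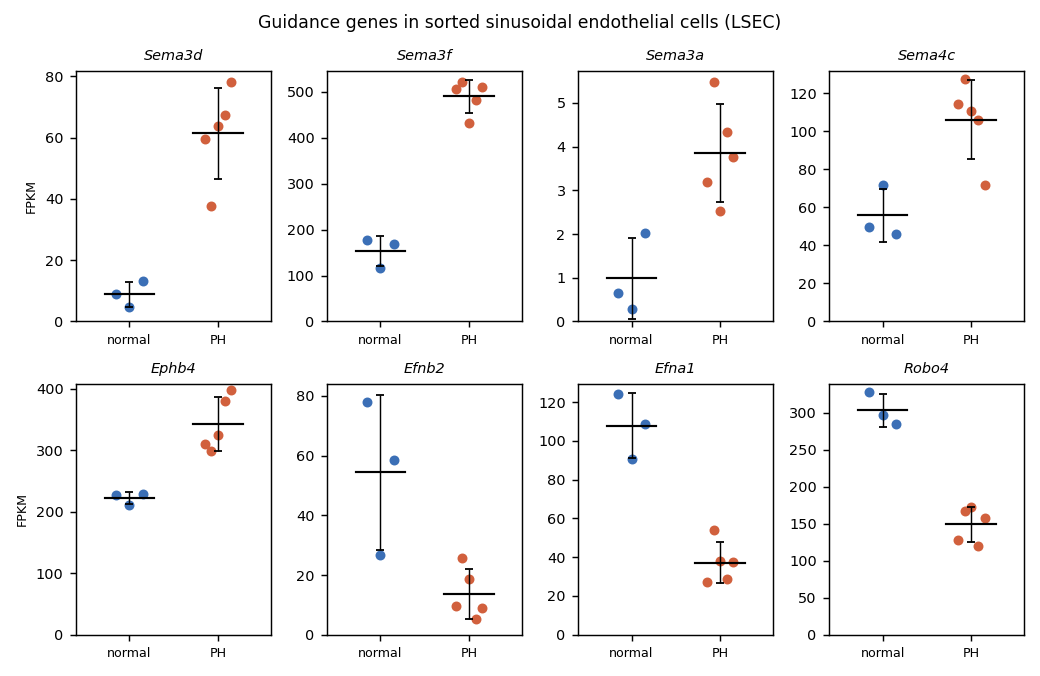
Points are FPKM of the 8 genes that changed in LSEC, 1 point per library (3 normal, blue; 5 PH, orange), with the mean as a line and the SD as a bar, on linear axes from 0. Sema3d and Sema3f sit at 37.8 to 78.2 and 432 to 521 FPKM after PH, above all normal libraries, and Sema4c is the gene whose groups overlap.

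Cells of non progenitor ducts changed in 11 of 42 tested genes after PH (15.2% of all genes tested), 5 higher (9.65% of all genes) and 6 lower (5.51%), and 4 and 8 with quantile normalization. Efnb2 rose from 2.22 and 1.30 FPKM to 18.1 and 13.2 FPKM (log2 change 2.60 ± 0.29, SE; limma adjusted p = 0.0113), beside 11.4 to 16.9 FPKM in cBEC and BEC after PH. Sema4b, a membrane semaphorin, rose from 7.91 and 8.38 FPKM to 46.9 and 37.4 FPKM (log2 change 2.23 ± 0.19, SE; limma adjusted p = 0.00871), and its mean was then highest in NPD (42.2 FPKM, next to 36.6 FPKM in stellate cells, with libraries that overlapped). Slit3 rose from 12.3 and 15.5 FPKM to 34.9 and 39.3 FPKM (log2 change 1.36 ± 0.19, SE; limma adjusted p = 0.0167). The receptors that rose were Epha2 (40.4 and 26.9 FPKM to 70.5 and 65.9 FPKM) and Plxnb2 (73.8 and 105 FPKM to 177 and 179 FPKM), with log2 changes of 1.03 and 1.01 and limma adjusted p of 0.0454 and 0.0443.

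The genes that fell in NPD included its 2 most abundant secreted semaphorins. Sema3d fell from 114 and 156 FPKM to 53.2 and 64.4 FPKM (log2 change -1.18 ± 0.22, SE; limma adjusted p = 0.0313), the opposite direction to LSEC. Sema3c fell from 344 and 319 FPKM to 155 and 182 FPKM (log2 change -0.98 ± 0.19, SE; limma adjusted p = 0.0318) and remained highest in NPD. Ephb1 fell from 30.9 and 43.6 FPKM to 13.9 and 18.0 FPKM (log2 change -1.16 ± 0.24, SE; limma adjusted p = 0.0361). Sema6a, Epha1 and Ephb6 fell by 0.95, 0.82 and 0.74 on the log2 scale. Mesothelial markers summed to 5930 to 6374 FPKM in normal NPD and 4122 to 4654 FPKM after PH, Kupffer markers fell in 6 of 6 genes (123 to 229 down to 18.9 to 26.7 FPKM), and 3 of 6 duct markers rose without overlap; their part was not tested. The groups have 2 libraries each. The calls of these genes, like those of all other genes, were lost without PH replicate 1 or PH replicate 2, which left 1 library in that arm. No change of sign was seen.

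**Figure D3:**
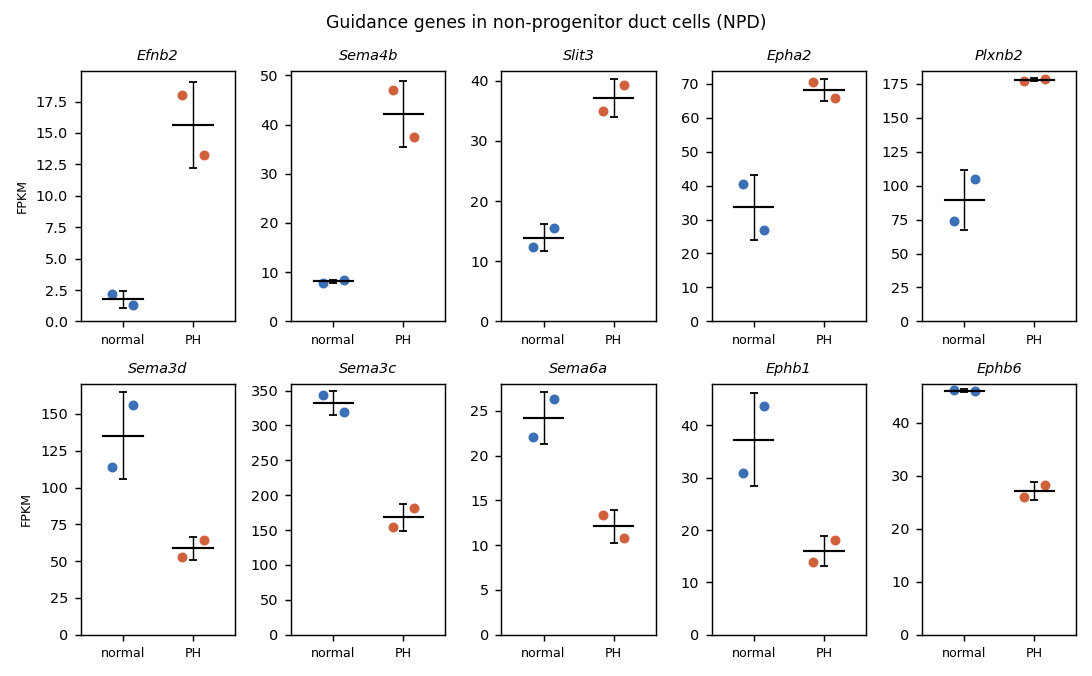
Points are FPKM of 10 guidance genes in the 2 normal (blue) and 2 PH (orange) NPD libraries, with the mean as a line and the SD as a bar, on linear axes from 0. The upper row holds the 5 genes that rose, with Efnb2 at 1.30 to 2.22 FPKM before and 13.2 to 18.1 FPKM after PH, and the lower row holds genes that fell.

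Hepatocytes expressed few of these genes: 14 were tested and 2 changed (6.19% of all genes tested), both lower after PH (4.41% of all genes were lower). Sema4g, a class 4 membrane semaphorin, fell from 75.1, 157, 139.6 and 78.5 FPKM to 28.2, 36.2, 46.2 and 61.5 FPKM (log2 change -1.35 ± 0.32, SE; limma adjusted p = 0.0377). Efna1 fell from 147, 138, 105 and 133 FPKM to 41.5, 98.4, 44.5 and 50.4 FPKM (log2 change -1.22 ± 0.28, SE; limma adjusted p = 0.0334). No PH library reached the lowest normal library for either gene (18.2% of all genes had groups that did not overlap), and PH replicate 2 lay apart from the others for Efna1. The hepatocyte marker Alb and 5 others summed to 90399 to 96204 FPKM in normal and 65557 to 96723 FPKM in PH hepatocytes. Efna1 was lost without any 1 library other than PH replicate 2, Sema4g without normal replicates 2 and 3 and PH replicates 1 to 3, with adjusted p from 0.0553 to 0.107. Neither was called with quantile normalization or without the filter on low values.

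In the Kupffer sort 15 of 24 tested genes changed (36.8% of all genes tested), and each of the 15 was lower after PH (20.1% of all genes were lower). The median log2 change was -1.50 over these genes and -0.04 over all genes. Robo4 fell from 85.5 and 103 FPKM to 3.10, 1.84 and 5.61 FPKM (log2 change -4.48 ± 0.37, SE; limma adjusted p = 0.00155). Plxnd1 fell from 117 and 128 FPKM to 12.6, 8.50 and 19.4 FPKM (log2 change -3.16 ± 0.32, SE; limma adjusted p = 0.00225). Plxnc1 fell from 92.4 and 134 FPKM to 12.5, 9.53 and 21.6 FPKM (log2 change -2.93 ± 0.36, SE; limma adjusted p = 0.00357). These are genes with higher means in normal LSEC than in normal KC: 304 against 94.1 FPKM for Robo4, 359 against 123 FPKM for Plxnd1 and 253 against 113 FPKM for Plxnc1. Sema6a, Plxna2, Efnb2, Ephb4 and Efna1 fell by 2.96 to 3.41 on the log2 scale, and Sema3f, Efnb1, Robo1, Plxna4, Slit1, Sema3d and Sema4c by 0.70 to 2.01. Sema6d, which normal KC shared with stellate cells, was not called (138 and 93.3 FPKM against 88.1, 88.3 and 105 FPKM).

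The co-receptors fell with them in KC, 4 of 5 tested, among them Nrp1 (mean 209 to 49.3 FPKM, limma adjusted p = 0.00138) and Kdr, the VEGF receptor (mean 420 to 13.4 FPKM, adjusted p = 0.00146). Of the effectors, 7 of 13 semaphorin and plexin genes, 4 of 9 Eph and ephrin genes and 3 of 10 Slit and Robo genes were lower. In each of these lists 1 gene was higher. Of all genes tested in KC, 20.1% were lower and 16.7% higher. All 6 sinusoidal endothelial markers fell without overlap in the same libraries, their sum going from 3240 to 4470 FPKM down to 303 to 526 FPKM, and 5 of 6 general endothelial markers fell. Kupffer markers rose in 3 of 6 genes and fell in 1 (sum 12259 to 13684 and 20536 to 22365 FPKM). The part of endothelial RNA in the falls was not tested. Without normal replicate 1 8 of the 15 calls were kept and without normal replicate 2 9, and Robo4, Sema6a, Plxna2, Plxnd1, Plxnc1, Efnb2, Robo1 and Plxna4 were kept without any 1 of the 5 libraries.

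Most of the tested guidance genes were higher in the blood sort after PH. There 22 of 27 tested genes changed (64% of all genes tested), 17 higher after PH (24.3% of all genes) and 5 lower (39.7%). The median log2 change was 1.58 over these genes and -0.31 over all genes. Sema3f rose from 1.89 and 3.74 FPKM to 232 and 76.5 FPKM (log2 change 5.18 ± 0.58, SE; limma adjusted p = 0.00242). Plxnd1 rose from 3.19 and 4.26 FPKM to 193 and 80.7 FPKM (log2 change 4.74 ± 0.44, SE; limma adjusted p = 0.00165). Plxnc1 rose from 9.42 and 10.7 FPKM to 301 and 153 FPKM (log2 change 4.29 ± 0.35, SE; limma adjusted p = 0.00128). For these 3 genes PH replicate 1 was the higher library. Plxna1, a co-receptor for class 3 and class 6 semaphorins, rose from 0.490 and 0.831 FPKM to 19.6 and 19.7 FPKM (log2 change 3.65 ± 0.20, SE; limma adjusted p = 0.000786), with equal PH libraries. Plxna1 was under 1 FPKM in both normal libraries and passed the filter on low values only through the PH libraries, which fixed its direction. Sema6b, Efnb2, Ephb4, Sema6d, Sema4c, Plxnb2, Efnb1, Plxna4, Sema6a, Plxna2, Robo1, Robo4 and Sema4b rose by 0.90 to 3.35 on the log2 scale.

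The genes that fell in blood were led by the immune semaphorins. Sema4a fell from 162 and 181 FPKM to 16.3 and 15.7 FPKM (log2 change -3.34 ± 0.14, SE; limma adjusted p = 0.000766). Sema4d fell from 139 and 128 FPKM to 19.4 and 17.3 FPKM (log2 change -2.80 ± 0.15, SE; limma adjusted p = 0.000766). Ephb6, a kinase-inactive Eph receptor also known from T cells, fell from 5.66 and 6.03 FPKM to 0.326 and 0.696 FPKM, and Sema4f and Plxna3 fell from lower levels. Ephb6 and Sema4f were under 1 FPKM in both PH libraries and passed the filter only through the normal ones, which fixed their direction. With the falls, no population held Sema4d above a mean of 19.8 FPKM after PH. In the same libraries all 6 lymphocyte markers fell (sum 2237 to 2281 FPKM down to 24.7 to 66.0 FPKM), as did 5 of 6 neutrophil markers (3655 to 3992 down to 954 to 2329 FPKM). With the rises, all 6 Kupffer markers (658 to 956 up to 6998 to 12423 FPKM) and all 6 sinusoidal endothelial markers (705 to 804 up to 2454 to 5465 FPKM) rose. The sinusoidal sum was higher in PH replicate 1 and the Kupffer sum in PH replicate 2, and their part in these changes was not tested. Of the 22 calls, 12 were kept without normal replicate 1 and 13 without normal replicate 2.

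**Figure D4:**
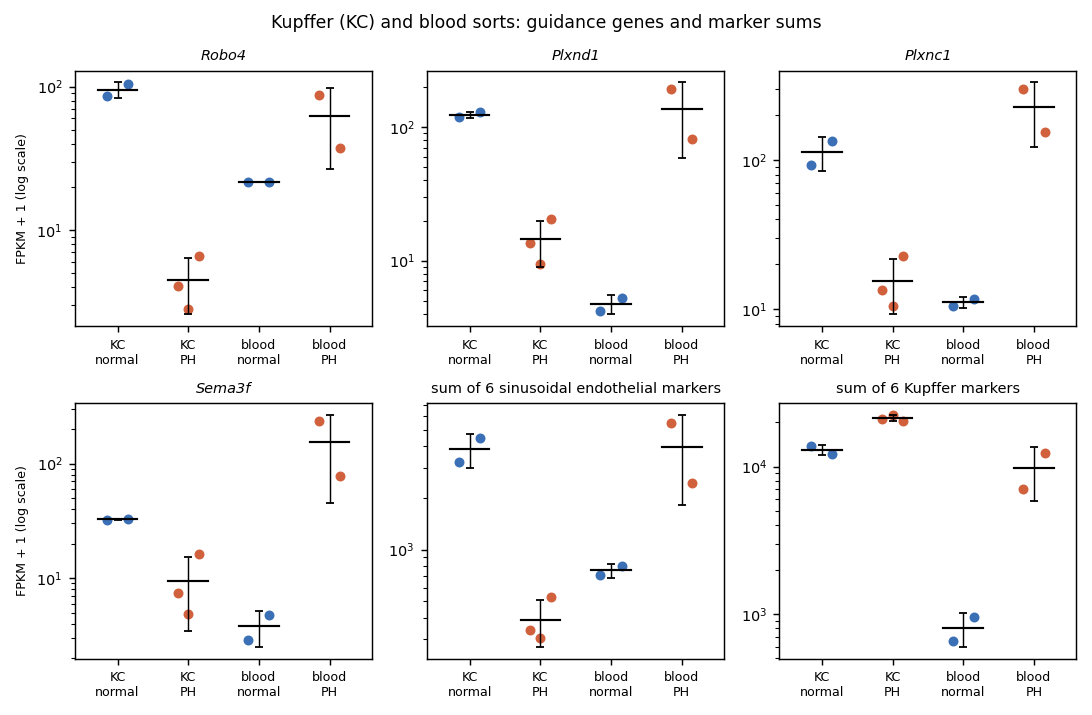
Points are FPKM + 1 on a log scale for Robo4, Plxnd1, Plxnc1 and Sema3f and for the summed FPKM of the sinusoidal endothelial and Kupffer marker lists, by library in the KC and blood sorts of normal (blue) and PH (orange) liver, with the mean as a line and the SD as a bar. The 4 genes and the sinusoidal markers are lower after PH in KC and higher after PH in blood, and the PH blood library with the higher sinusoidal sum has the higher level of all 4 genes.

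In the remaining populations no guidance gene passed after PH when each sort was fitted alone. With limma, 0 of 41 tested genes were called in cBEC (0.0681% of all genes), 0 of 35 in BEC (1.81%), 0 of 34 in EC (0.0249%), 0 of 37 in HSC (0.00853%) and 0 of 45 in Thy1 cells (0.00747%). At an unadjusted limma p under 0.05 there were 6, 8, 5, 8 and 14 of them, against 10.2%, 16.3%, 10.8%, 8.48% and 18.1% of all genes. In 1 fit of all 20 groups, which pools the spread, 3, 3, 3, 11 and 14 were called (535, 348, 219, 1940 and 1749 of all genes). Plxnc1 in Thy1 cells was 7.22 and 17.5 FPKM in normal and 96.7 and 237 FPKM in PH liver (log2 difference 3.63, limma adjusted p = 0.130), beside general endothelial markers of 799 to 874 and 1135 to 2178 FPKM. Sema4b in Thy1 cells was 7.63 and 9.34 FPKM against 33.4 and 25.1 FPKM (log2 difference 1.67, adjusted p = 0.130). In stellate cells Epha2 was 22.9 and 11.1 FPKM against 31.3, 71.8 and 63.9 FPKM (log2 difference 1.65, adjusted p = 0.453), and Robo4 was 2.54 and 29.9 FPKM against 0.780, 1.79 and 0.525 FPKM, beside 6 of 6 endothelial markers lower after PH. Sema4g in cBEC was 26.8 and 13.9 FPKM after PH, below all 4 normal libraries (34.4 to 66.8 FPKM, limma adjusted p = 0.337). Here PH replicate 1 is the library with the treatment tag normal. None of these differences passed.

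The response to PH differed between populations for 34 of 52 tested genes in an F test over all 20 groups, against 47.8% of all genes. Efnb2 was called after PH in NPD, LSEC, KC and blood and Sema3d in NPD, LSEC and KC, each with opposite signs in NPD and LSEC. The difference of those 2 responses, NPD minus LSEC, was fitted for all genes with limma after the values were seen, and 7 of 52 guidance genes passed (6.42% of all genes). For Efnb2 it was 4.58 ± 0.65 (SE) and for Sema3d -3.89 ± 0.65 (SE) on the log2 scale, given as descriptions because these 2 genes were picked for their opposite calls. Efnb2 in EC, 86.8 and 98.2 FPKM in normal and 76.4, 76.7 and 64.4 FPKM in PH liver, was the highest of any sort in both. For blood minus KC, 23 of 52 passed (35.7% of all genes), among them 12 genes that were called lower in KC and higher in blood (8.42% of all genes tested in both). Between LSEC and EC, 0 of 52 genes differed in response (limma, 0.345% of all genes). At an unadjusted limma p under 0.05 there were 13. The share of all genes at that level was not counted, so the 13 cannot be called many or few.

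**Figure D5:**
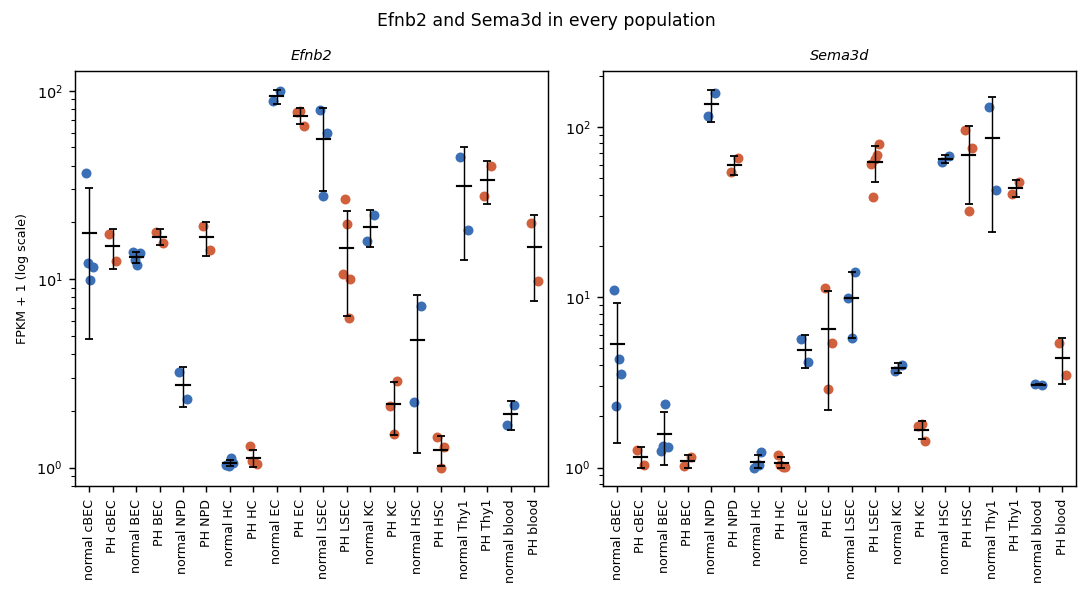
FPKM + 1 on a log scale for Efnb2 and Sema3d, 1 point per library in the 10 populations of normal (blue) and PH (orange) liver, with the mean as a line and the SD as a bar. Efnb2 is higher after PH in NPD and lower in LSEC and KC, while Sema3d is lower in NPD and higher in LSEC, where it reaches 37.8 to 78.2 FPKM.

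The promoters of these 2 genes are set beside those of 2 endothelial receptors that moved in KC and blood, because the 4 differ in composition. Each sequence is the 250 bases upstream of the start of transcription, from RefSeq on GRCm38.p6, where 51 of the 58 genes have an entry. Capitals mark GGGCGG (the GC box) or TATAAA on either strand. Efnb2 lies at chr8:8661243-8661492 on the minus strand, Sema3d at chr5:12382916-12383165 on the plus strand, Robo4 at chr9:37401722-37401971 on the plus strand and Plxnd1 at chr6:115995006-115995255 on the minus strand.
Efnb2: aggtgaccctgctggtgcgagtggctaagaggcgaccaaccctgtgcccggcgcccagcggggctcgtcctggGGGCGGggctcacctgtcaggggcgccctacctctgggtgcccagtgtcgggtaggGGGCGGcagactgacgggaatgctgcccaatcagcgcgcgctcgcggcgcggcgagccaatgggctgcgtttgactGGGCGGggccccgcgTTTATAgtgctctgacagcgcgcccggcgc
Sema3d: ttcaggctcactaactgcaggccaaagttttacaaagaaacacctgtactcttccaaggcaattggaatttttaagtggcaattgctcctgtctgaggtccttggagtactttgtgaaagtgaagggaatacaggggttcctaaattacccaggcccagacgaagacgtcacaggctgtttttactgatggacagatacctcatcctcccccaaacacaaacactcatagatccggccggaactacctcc
Robo4: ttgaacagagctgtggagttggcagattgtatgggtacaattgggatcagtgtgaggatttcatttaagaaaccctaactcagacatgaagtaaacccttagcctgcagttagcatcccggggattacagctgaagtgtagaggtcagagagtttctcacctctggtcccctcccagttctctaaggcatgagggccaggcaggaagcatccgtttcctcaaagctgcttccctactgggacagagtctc
Plxnd1: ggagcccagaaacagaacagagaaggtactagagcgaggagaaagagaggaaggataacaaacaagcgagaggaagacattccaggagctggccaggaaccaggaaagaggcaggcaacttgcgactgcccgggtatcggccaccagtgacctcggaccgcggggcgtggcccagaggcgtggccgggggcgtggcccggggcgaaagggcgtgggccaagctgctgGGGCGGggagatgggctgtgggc
The Efnb2 window is 72.0% G and C and holds 3 GC boxes and 1 TATAAA, with no overlap between them. The Plxnd1 window is 64.8% G and C with 1 GC box, and the Sema3d (46.8%) and Robo4 (49.6%) windows hold neither motif. GGGCGG was present in 32.7% of all 32851 promoter windows and in 47 of the 67 windows of these genes (70.1%), and TATAAA in 12.4% of all and 2 of 67 (2.99%). CGGAAG, 1 extended form of ETS-factor motifs, was in 13.6% of all windows and 6 of 67 (8.96%), and in none of the 4 shown. The shorter ETS core GGAA was not counted. A match of letters describes the window and shows no binding.

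Known ligand and receptor pairs were compared by the sort with the highest mean. Efnb2 and Ephb4 both peaked in EC in normal liver (92.5 and 230 FPKM), and after PH Efnb2 peaked in EC (72.5 FPKM) and Ephb4 in LSEC (342 FPKM). Sema3f peaked in EC in normal liver and in LSEC after PH (490 FPKM), where its co-receptor Nrp2 peaked in both (129 and 109 FPKM). Sema3c peaked in NPD (332 and 168 FPKM), a different sort from the peak of Nrp2. NPD still held Nrp2, at 23.6 and 34.2 FPKM in normal and 25.5 and 27.1 FPKM in PH liver. Sema4d peaked in blood in normal liver (133 FPKM) and in BEC after PH (19.8 FPKM), while its receptor Plxnb1, which associates with Met, peaked in cBEC in both (116 and 119 FPKM). Efna1 peaked in EC and its receptor Epha2 in cBEC (64.1 and 83.8 FPKM). Slit3 peaked in Thy1 cells (62.3 and 77.7 FPKM, the latter from libraries at 136 and 19.7 FPKM), with Robo1 highest in stellate cells (19.9 and 17.0 FPKM). Sema6d and Plxna1 both peaked in stellate cells, at 257 and 37.8 FPKM in normal and 356 and 40.0 FPKM in PH liver. These are levels of transcripts in sorted cells, with no measure of contact or signalling.

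Effector genes beside the families were counted from lists of known plexin, Eph and Robo partners. In NPD after PH 2 of 15 semaphorin and plexin effectors and 2 of 10 Eph and ephrin effectors rose and none fell (9.65% of all genes rose and 5.51% fell). Inppl1, a phosphatase that binds EphA2, rose from a mean of 21.6 to 52.6 FPKM (log2 change 1.26, limma adjusted p = 0.0247). In LSEC 1 effector of each of the 3 lists fell (of 13, 9 and 10 tested; 4.31% of all genes fell) and 1 plexin partner rose. Tiam1, a Rac activator that binds Eph receptors, fell from a mean of 17.7 to 2.37 FPKM (log2 change -2.37, limma adjusted p = 0.0110). In hepatocytes Grb7, an adaptor of EphB1, fell from 74.3 to 27.3 FPKM (-1.50, adjusted p = 0.0338) (1 of 7 Eph and ephrin effectors tested; 4.41% of all genes fell). In blood 4 of 6 co-receptors, 7 of 14, 5 of 9 and 6 of 10 effectors of the 3 lists rose, and 0, 3, 1 and 2 fell (24.3% of all genes rose and 39.7% fell). In BEC 1 of 15 semaphorin and plexin effectors rose and 1 of 7 co-receptors, Kdr, fell (0.233% of all genes rose and 1.57% fell). All 6 general endothelial markers (18.1 to 62.7 down to 0.782 to 1.44 FPKM) and all 6 sinusoidal markers (78.4 to 314 down to 0.692 to 4.25 FPKM) also fell there. Their part in the fall of Kdr was not tested. No effector was called in cBEC, EC, HSC or Thy1 cells.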

How the data were processed

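RNA from 10 sorted liver populations was sequenced in 55 libraries. The authors deposited 1 table of FPKM with a column per replicate, per the file headers, and read depth is unknown, so no counting interval is given. CASAVA 1.8.2, Bowtie 1.0.0 and the build mm9 are named, per the submitters' processing notes; the counting tool is not given in the sources used here. All 55 sample columns carry a sample title, and 0 others were left over. Groups follow the titles. The library titled PH cBEC replicate 1 carries the treatment tag normal and was kept as titled.

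The table has 36141 rows for 24478 symbols. A symbol with several rows was represented by its highest row on average. The 58 genes have 100 rows; 36 have 1 row, and for the other 22 the row used held 15.1% to 76.3% of the symbol's summed FPKM. How reads were divided among such rows is not given in the sources used here. The sum of FPKM over rows ranged from 624726 to 1203197 per library. Hepatocyte libraries had the largest sums, from 960918, and the highest library of another sort had 848630. Levels in hepatocytes are compared with other sorts as listed, without a correction for this.

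Comparisons were made on log2(FPKM + 1) by limma 3.58.1 (R 4.3.3) with trended, robust moderation. Tests were two-sided, and a call needed a p under 0.05 after Benjamini-Hochberg adjustment over all genes tested. Differences on this scale understate those of low genes. Genes needed 1 FPKM in as many libraries as the smaller group has. A gene under 1 FPKM throughout 1 group thus entered only through the other group, which fixed its direction. Such genes are within the counts and medians. PH was compared with normal within a population. The F test and the differences of responses used all 20 groups, and enrichment used the 27 normal libraries.

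The genes and lists were chosen with earlier results of these data known. Genes are named with values if they passed after PH with a log2 change of at least 1, were among the 3 highest of their class, or were among the 2 largest differences in a direction between sorts; others named were chosen after their values were seen. Alternatives were quantile normalization, a pseudocount of 0.1, leaving out the filter, the sum over a symbol's rows, 1 fit of all groups, a replicate block and leaving out each library. Added after seeing the data were a restriction to genes under 10 FPKM in hepatocytes and the differences of 2 responses. The fits were tested on simulated data. Promoter windows are from RefSeq on GRCm38.p6. Figures used Python 3.11.15 and matplotlib 3.10.9.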

Additional observations from a re-analysis of the deposited data

Results flagged for a closer look

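In 34 sets, each 1 gene in 1 group of 4 or 5 libraries, a library stood apart from its group in 7. At 1 set in 20 this would be 1.7 if the sets were independent. Sets of the same group share their libraries, so they are not independent, and 7 cannot be weighed against 1.7. Efna1 in PH hepatocytes was 98.4 FPKM in replicate 2 and 41.5 to 50.4 FPKM in the other 3. The other 6 were all in normal cBEC replicate 1, which was above the other 3 libraries of its group for Efna5 (4.98 FPKM), Efnb2 (35.8 FPKM), Plxna4 (10.7 FPKM), Robo1 (0.769 FPKM), Sema3e (1.44 FPKM) and Slit3 (5.40 FPKM). That library also had the highest mesothelial marker sum of its group (502 FPKM against 146 to 193 FPKM) and the highest general endothelial sum (118 FPKM against 0.670 to 20.6 FPKM), and the part of this in the 6 values was not tested.

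By the limma F test, 34 of the 52 guidance genes tested responded to PH differently among the 10 populations, as did 47.8% of all genes. Between NPD and LSEC the response of Efnb2 differed by 4.58 and that of Sema3d by -3.89 on the log2 scale. In the blood and Kupffer sorts 12 genes were called higher after PH in blood and lower in KC (8.42% of all genes tested in both). These 12, and the pair above, were picked for their opposite calls, so the differences of their responses (log2, blood minus KC) are descriptions. Among receptors the difference was 7.91 for Plxnd1, 7.21 for Plxnc1, 5.87 for Robo4, 5.75 for Ephb4, 4.78 for Plxna2, 3.41 for Robo1 and 3.29 for Plxna4. Among ligands it was 7.15 for Sema3f, 6.04 for Efnb2, 5.15 for Sema6a, 3.56 for Efnb1 and 2.93 for Sema4c.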

How the results depend on the processing

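Depth is unknown and most groups have 2 or 3 libraries. No value of a guidance gene called after PH or between sorts changed sign under any alternative run. Among these calls the number no longer past the threshold was 26 of 95 without the filter, 13 of 95 in 1 fit of all 20 groups, 11 of 95 with quantile normalization, 5 of 95 with a pseudocount of 0.1 and 1 of 95 with rows summed. The counts of called genes that moved by more than 1.5 times were as follows, and the cause was not tested. In 1 fit of all 20 groups they were 3 in cBEC, 3 in BEC, 3 in EC, 11 in HSC, 14 in Thy1 and 4 for EC against LSEC (each 0 when fitted alone), 7 in NPD (11 alone) and 33 for HSC against Thy1 (15 alone). Over all genes that fit called 535 in cBEC (9 alone), 348 in BEC (232), 219 in EC (3), 1940 in HSC (1) and 1749 in Thy1 (1). It called 256 for EC against LSEC (1 alone), 1956 in NPD (1974) and 4877 for HSC against Thy1 (1263). Without the filter the counts of guidance genes were 3 in NPD, 0 in HC (2 with it) and 6 for HSC against Thy1. Those of all genes were 648 (1974 with it), 444 (621) and 420 (1263). In BEC the count of guidance genes was 3 with a pseudocount of 0.1, 2 with rows summed and 1 among genes under 10 FPKM in hepatocytes. That of all genes was 481, 305 and 280, against 232 in the main fit. In HC the count of guidance genes was 0 with quantile normalization and 0 among genes under 10 FPKM in hepatocytes. That of all genes was 562 and 151, against 621 in the main fit. Quantile normalization moved the median log2 difference of all genes by over 0.1 in 6 comparisons, from -0.11 to 0.05 in cBEC, -0.12 to 0.02 in BEC, -0.04 to 0.09 in KC, -0.31 to -0.15 in blood, -0.37 to 0.07 for HSC against Thy1 and 0.25 to 0.09 for cBEC against NPD.

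Leaving out 1 library at a time gave 0 to 21 calls in NPD, 0 to 1 in HC, 0 to 1 in BEC, 3 to 9 in LSEC, 8 to 20 in KC, 12 to 24 in blood, 0 to 24 for HSC against Thy1 and 15 to 25 for cBEC against NPD. It gave 32 to 38 for the F test and 135 to 142 for enrichment (139 calls of a gene in a population), and 0 each time in cBEC, EC, HSC, Thy1 and for EC against LSEC. Over all genes the calls ranged from 312 to 691 in HC and from 277 to 1267 in LSEC, and those of the other comparisons moved as well. The labels tie no replicate number to an animal or a day, so the numbers were not taken as pairs. Deviations of same-numbered libraries correlated from -0.67 to 0.57 in HC and from -0.24 to -0.02 in LSEC, the 2 populations with at least 3 pairs. In the other 8, with 2 pairs each, they correlated from -0.16 to 0.13. In BEC, NPD, HSC and Thy1 each PH library numbered 1 or 2 correlated best with the normal library of that number. In NPD and Thy1, with 2 libraries per arm, replicates 1 and 2 necessarily give the same correlation (0.09 and 0.03), so each holds 1 comparison. Where an arm was left with 1 library, that library is assumed to vary like the others. With a replicate block the counts were 6 in BEC, 12 in NPD, 0 in HC, 0 in LSEC (8 without it), 19 in KC, 4 in Thy1, 22 in blood and 33 for the F test, and 0 in cBEC, EC and HSC. Calls over all genes moved too, to 1027 in BEC (232 without the block), 3 in LSEC (973) and 302 in HC (621). They were 2537 in NPD (1974), 6549 in KC (4350), 485 in Thy1 (1), 7667 in blood (8199) and 7492 for the F test (7905).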
